A study of Caenorhabditis elegans with 10 samples.

Results

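Broad HPL domains were intervals of 2000 bp or more in the 3 lists of regions bound by HPL-1 or HPL-2 in Caenorhabditis elegans L4 larvae. They were selected on width alone, taken as end minus start plus 1, and 250 of 4583 intervals qualified. The intestinal HPL-1 list gave 24 of 1346, the intestinal HPL-2 list 69 of 1665 and the hypodermal HPL-2 list 157 of 1572. The intervals came from DamID-seq, in which a chromatin protein carries the bacterial adenine methyltransferase Dam and marks GATC sites near the places it visits. The strains were profiled with 2 libraries each in 5 groups, 10 libraries in all: MRS579 (HPL-1::Dam in intestine), MRS580 (HPL-2::Dam in intestine), MRS578 (HPL-2::Dam in hypodermis), and the controls BN1051 (GFP::Dam in intestine) and BN561 (GFP::Dam in hypodermis). All animals were L4 larvae grown for 48 h at 20 °C after synchronisation of embryos. The promoters that drive the fusions are not named in the labels, and bound regions hold no expression by which the tissue could be checked.

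Both intestine lists share their GFP::Dam intestine control. Each list is the authors' call on an averaged profile against GFP::Dam in the same tissue, so no value below carries a replicate error and no test between groups was possible. Sequencing depth per library is not known from the lists. The score and false discovery rate (FDR) of each interval are the authors' own, the scale of the score is not stated, and both serve only to describe intervals within 1 list. Coordinates are those of the ce11 (WBcel235) build, and genes are given by their bodies, since the gene table used here names no exons or strand.

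HPL-1 and HPL-2 are the nematode members of the heterochromatin protein 1 family. Proteins of this family hold a chromodomain that binds histone H3 methylated at lysine 9, and a chromoshadow domain through which they pair with each other and with partner proteins. In C. elegans this methylation is concentrated on the outer arms of the chromosomes, where repeats and recently expanded gene families are common. Runs of marked nucleosomes can carry such proteins over extended stretches of chromatin, and such stretches could appear as broad intervals in a list of bound regions. Neither histone methylation nor the spacing of GATC sites was measured here, so whether the domains are such stretches was not tested.

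Domains of 2000 bp or more made up 1.78% of intestinal HPL-1 intervals, 4.14% of intestinal HPL-2 intervals and 9.99% of hypodermal HPL-2 intervals. Since they were selected on width, a larger share of the covered sequence and a larger median width follow from the rule. The domains held 61.3 kb (6.42%) of the covered sequence in intestinal HPL-1, 185 kb (13.6%) in intestinal HPL-2 and 421 kb (24.1%) in hypodermal HPL-2. Their median width was 2367.5 bp in intestinal HPL-1, 2440 bp in intestinal HPL-2 and 2548 bp in hypodermal HPL-2, against 613 bp, 651.5 bp and 883 bp for the narrower intervals in the same order. Widths of 2500 bp or more were reached by 9, 31 and 81 domains in this order and widths of 3000 bp or more by 3, 14 and 32, and the widest domain of each list measured 4813 bp, 5118 bp and 8052 bp. The hypodermis list, whose narrower intervals also had the largest median width, held the most and the widest domains.

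**Figure D1:**
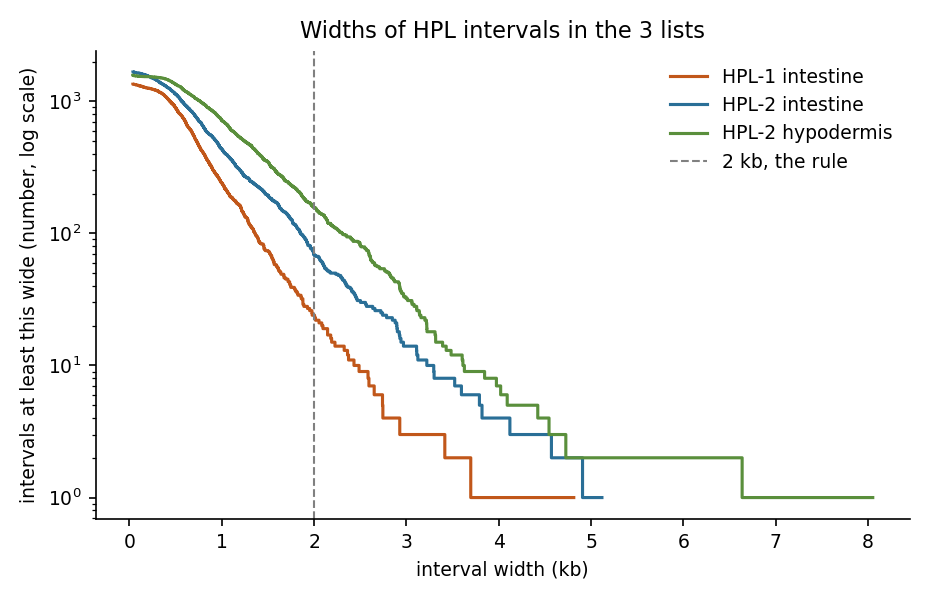
Number of intervals (log scale) at least as wide as the width on the horizontal axis (kb), 1 line per list, with the 2 kb rule dashed. At 2 kb the lines stand at 24 intestinal HPL-1, 69 intestinal HPL-2 and 157 hypodermal HPL-2 intervals, and they end at 4813, 5118 and 8052 bp.

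The threshold cut through a continuous run of widths. In intestinal HPL-1 the narrowest domains measured 2005 bp on chromosome V, 2015 bp over meg-4, which encodes a protein of the germline P granules, and 2053 bp over egl-8, which encodes a phospholipase C beta. The widest intervals below the threshold measured 1979, 1976 and 1952 bp. In intestinal HPL-2 the domain over unc-71, which encodes a protein of the ADAM family, measured 2003 bp, and the next measured 2018 and 2045 bp. Just outside lay intervals of 1996 bp over hgap-1, of 1994 bp over the cadherin gene cdh-1 and of 1994 bp over mlt-11, a gene needed for molting. In hypodermal HPL-2 the narrowest domains were those over the innexin gene inx-1 (2008 bp), over K09F6.10 (2014 bp) and over kpc-1 (2018 bp), which encodes a proprotein convertase. Outside were 2 intervals of 1994 bp and 1 of 1987 bp over the edges of the collagen gene col-102 and the innexin gene inx-18.

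Broad domains tended to carry high scores within their own lists. This is a description, since width and score come from the same profile. The median score was 0.93 for domains and 0.66 for narrower intervals in intestinal HPL-1, 1.33 and 0.94 in intestinal HPL-2, and 1.91 and 1.62 in hypodermal HPL-2. Scores above the median of the list were held by 22 of 24, 56 of 69 and 118 of 157 domains in the same order. An FDR of 0.01 or below was listed for 83.3%, 91.3% and 91.1% of domains, against 53.2%, 63.9% and 56.0% of narrower intervals. The single highest score belonged to a domain in intestinal HPL-1 (1.65, with 1.63 for the highest narrower interval) and in hypodermal HPL-2 (4.17, with 4.11 for the highest narrower interval), but in intestinal HPL-2 the highest domain scored 2.68 and the highest narrower interval 3.54. The widest domains were not those with the highest scores. The 8052 bp domain of the hypodermis ranked 33 of 157 by score, and the 4813 bp domain of HPL-1 ranked 15 of 24.

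**Figure D2:**
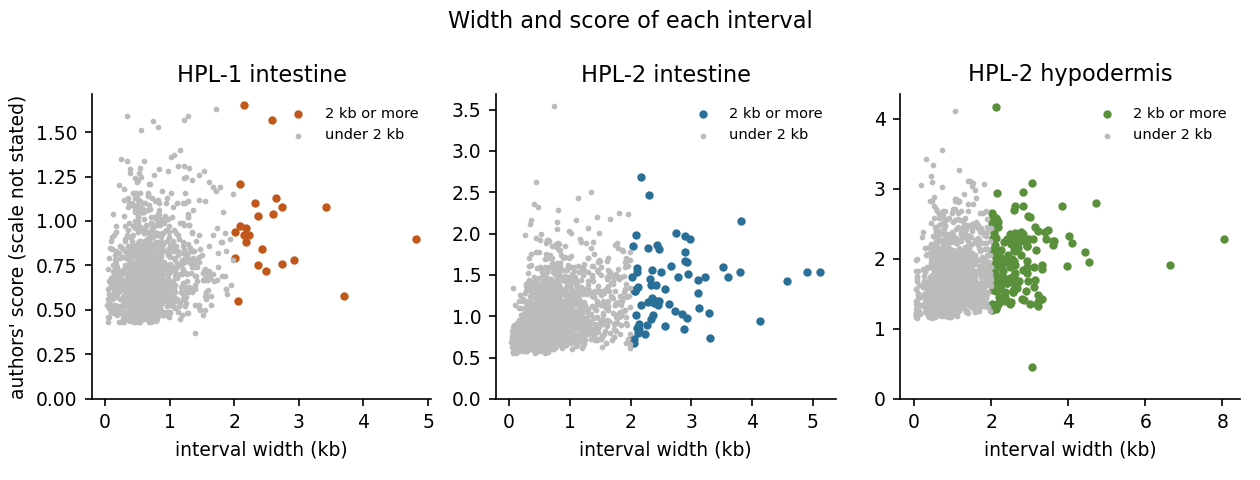
Authors' score (scale not stated) against interval width (kb) for each interval, 1 panel per list, with domains of 2 kb or more coloured and narrower intervals grey. Domains lie mostly in the upper part of each cloud, and 1 hypodermis domain of 3061 bp lies alone at a score of 0.45.

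One hypodermis domain stood apart. The interval over Y20F4.4 on chromosome I, from 2035591 to 2038651, measured 3061 bp and scored 0.45 with an FDR of 0.024. No narrower interval of that list scored below 1.16, and the next lowest domain scored 1.27. It overlapped neither of the other lists.

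The 10 widest HPL-1 domains included 3 without a protein-coding gene, all on the arms of chromosome V. The widest of all, 4813 bp from 17139487 to 17144299, held the microRNA gene mir-257. Next came domains of 3697 bp over part of perm-4, a gene of the eggshell permeability barrier, of 3416 bp over the edges of fdgt-2 and F14E5.8, and of 2928 bp inside mup-4, which encodes a transmembrane protein of the epidermal attachment to muscle. A domain of 2745 bp lay over the neuropeptide gene nlp-99 and the neprilysin-like peptidase gene nep-2. Those over R155.3, over tim-1, the worm homologue of Timeless, and over the chemoreceptor gene srh-303 measured 2651, 2594 and 2487 bp. By score the list was led by the domain inside unc-54 (1.65), the myosin heavy chain gene of body wall muscle, followed by a stretch of chromosome V without a protein-coding gene from 19275726 to 19278309 (1.57), Y43F8B.3 (1.21), R155.3 (1.13) and another such stretch of chromosome V starting at 17499508 (1.1).

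In intestinal HPL-2 several of the widest domains lay within long genes. The widest, 5118 bp with a score of 1.53, lay inside ketn-1, which encodes the titin-like sarcomere protein kettin (chromosome V, 2799132 to 2804249). It covered 19.7% of that gene's 25922 bp. A domain of 4908 bp lay inside Y43F8B.3 and also over phy-4, which encodes a prolyl 4-hydroxylase. Others lay inside F30H5.3 (4571 bp) and vab-10 (3596 bp), the spectraplakin gene that anchors the epidermal cytoskeleton, and over the edges of the ubiquitin-conjugating enzyme gene ubc-8 (4121 bp). On the right arm of the X chromosome a domain of 3819 bp held F41G4.13 and F41G4.7 entire and scored 2.15. By score the list was led by the domain inside the cuticle collagen gene col-87 (2177 bp, 2.68), then those in rimb-1, which encodes a RIM-binding protein of synapses (2305 bp, 2.47), over F41G4.7, in dpy-18 (2742 bp, 2.01), which encodes the alpha subunit of a collagen prolyl 4-hydroxylase, and over the hedgehog-related gene grl-16 (2094 bp, 1.98).

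The hypodermis list held the longest stretches. Its widest domain, 8052 bp with a score of 2.29, lay inside Y65B4A.2 on chromosome I from 639009 to 647060, and a second domain of 2312 bp followed in the same gene. The next covered 6637 bp over orc-3, which encodes a subunit of the origin recognition complex, and 4727 bp over lido-13 and the chemoreceptor gene sri-31. A domain of 4423 bp held the glutaredoxin gene glrx-10 entire, and one of 4545 bp held B0454.26 entire together with 11 non-coding RNA genes. On chromosome V, domains of 4092 and 3628 bp lay side by side over T20D4.11 and T20D4.10 and over T20D4.15 and T20D4.12. The highest score, 4.17, belonged to a domain of only 2132 bp inside W04A8.3, followed by R155.3 (3.08), lido-8 (2.95), gfrl-1 (2.94) and lido-13 (2.8). The gene gfrl-1 held 2 domains of this list, of 2153 and 2219 bp. So did tra-1, which encodes the zinc finger transcription factor at the end of the sex determination pathway and was chosen after its values were seen, with 3484 and 2101 bp.

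Broad domains lay mostly on chromosome arms, taken as the outer 2 of 3 equal parts by interval midpoint. By this definition an even spread would also place most intervals on arms. In intestinal HPL-1, 20 of 24 domains (83.3%) lay on arms, against 74.0% of narrower intervals. In intestinal HPL-2 it was 66 of 69 (95.7%), against 88.0%, and in hypodermal HPL-2, 144 of 157 (91.7%), against 88.0%. By chromosome, the HPL-1 share was above that of narrower intervals on III, IV, V and X. It was below on I (1 of 3, against 79.6%) and II (1 of 2, against 75.5%), and V held 11 of the 20 HPL-1 arm domains. The hypodermis share was below on III (82.8%, against 85.3%) and X (66.7%, against 75.8%) and above elsewhere. The intestinal HPL-2 share was above on every chromosome. The domains of the intestine lists also lay nearer to the ends, at a median of 11.8% of the chromosome length from the nearer end in both, against 20.0% for narrower HPL-1 and 16.1% for narrower HPL-2 intervals. In the hypodermis the medians were 14.8% and 16.0%. No difference between shares was tested, here or below, since intervals of 1 list are not replicates.

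**Figure D3:**
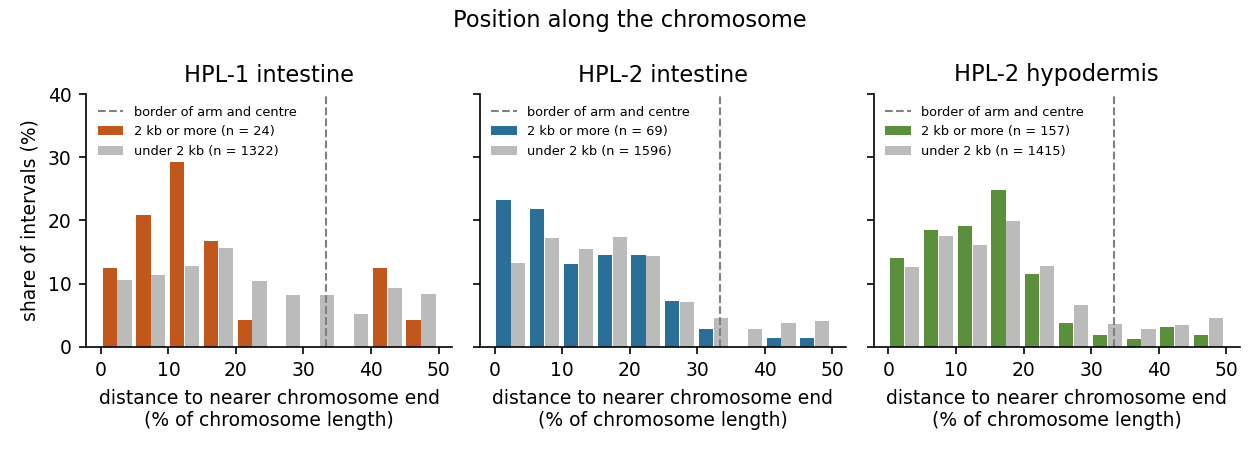
Share of intervals (%) by the distance of the midpoint from the nearer chromosome end (% of chromosome length), 1 panel per list, with domains of 2 kb or more coloured, narrower intervals grey and the border of arm and centre dashed. Domains are at a median of 11.8%, 11.8% and 14.8%, against 20.0%, 16.1% and 16.0% for narrower intervals.

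Chromosomes took unequal shares of the domains. Chromosome V held 11 of 24 HPL-1 domains (45.8%, against 28.6% of all HPL-1 intervals), 13 of 69 intestinal HPL-2 domains (18.8%, against 20.2%) and 37 of 157 hypodermis domains (23.6%, against 27.1%), so that only the HPL-1 share was above that of all intervals of its list. All the chromosome V domains lay on an arm. Chromosome I held 18 intestinal HPL-2 domains (26.1%, against 19.6% of all intervals of that list) and 40 hypodermis domains (25.5%, against 20.9%). The X chromosome held 2 HPL-1 domains (8.33%, against 11.9% of all intervals), 10 intestinal HPL-2 domains (14.5%, against 12.1%) and 9 hypodermis domains (5.73%, against 8.21%).

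Domains in chromosome centres were few, and their genes were chosen after their values were seen. The 4 HPL-1 centre domains lay over fasn-1, the fatty acid synthase gene, over tin-13, which encodes a mitochondrial import protein, together with DY3.8, over fdgt-2 and over mup-4, and none of the 4 met an interval of either HPL-2 list. Intestinal HPL-2 had 3 centre domains, of which that over far-1 and far-2 returned in the hypodermis with the same ends. Hypodermal HPL-2 had 13, among them domains inside daf-4, a TGF-beta receptor gene, lag-1, the transcription factor gene of the Notch pathway, pdfr-1, a neuropeptide receptor gene, and the galectin gene lec-2. Of these 13, 8 met neither intestine list.

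Some domains lay close together. Domains of 1 list with midpoints within 50 kb of the next numbered 2 of 24 in intestinal HPL-1, 13 of 69 (18.8%) in intestinal HPL-2 and 55 of 157 in hypodermal HPL-2. A list with more domains on the same chromosomes has closer neighbours by number alone. No background was counted, so nothing is read from the gaps between lists. The run with the most domains lay on the left arm of chromosome I, where 4 hypodermis domains ran from 2617013 to 2683589 over spe-47, a sperm gene, ctn-1, which encodes a catenin-like protein, F40E3.5, F40E3.6 and F32B5.7, genes chosen after their values were seen. Intestinal HPL-2 had 3 domains in the same stretch. A run of 3 hypodermis domains on chromosome II, from 2997802 to 3056118, took in lido-8, B0454.26 and lido-13, and an intestinal HPL-2 domain of 2902 bp over lido-11 and lido-12 lay within it. On chromosome III, 3 hypodermis domains lay closer together, within 13.6 kb from 2933546 to 2947145. Since neighbouring intervals can be separated by a short gap, intervals of the same list with 500 bp or less between them were also joined. This gave 44, 97 and 202 domains of 2000 bp or more in intestinal HPL-1, intestinal HPL-2 and hypodermal HPL-2. The widest joined domains were 6961 bp on the X chromosome from 5 HPL-1 intervals, with no protein-coding gene, and 8693 bp on the X chromosome from 4 intestinal HPL-2 intervals around F41G4.13 and F41G4.7.

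Genes under the domains were counted where a domain shared at least 1 bp with the gene body. Of 19971 protein-coding genes, 19 (0.0951%) lay under HPL-1 domains, 70 (0.351%) under intestinal HPL-2 domains and 177 (0.886%) under hypodermal HPL-2 domains. For intervals of any width the shares were 4.84%, 6.11% and 5.92% in the same order. Together the domains met 240 genes, of which 25 lay under domains of 2 or more lists. Only unc-54 lay under a domain of each of the 3 lists.

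Fewer domains than narrower intervals lay inside a single gene body. The shares were 25.0% against 56.4% in intestinal HPL-1, 49.3% against 67.2% in intestinal HPL-2 and 37.6% against 52.3% in hypodermal HPL-2. By its length alone a wide interval has less room inside a gene. Intestinal HPL-2 domains lay over longer genes, with a median gene length of 6176 bp, against 3613 bp under narrower intervals of that list and 2006 bp for all protein-coding genes. For intestinal HPL-1 the medians were 3466 and 3338 bp, and for hypodermal HPL-2 3297 and 3321 bp. Genes of 10 kb or more made up 28.6% of genes under intestinal HPL-2 domains, against 19.0% under narrower intervals and 4.77% of all genes. With 1 bp of overlap counted, a long gene is met more often by its length alone, here and in the gene lists below. Nothing is therefore read from the gap to all genes. In hypodermal HPL-2 they made up 19.2%, against 16.7%, and in intestinal HPL-1 15.8%, against 17.1%. Among these long genes, chosen after their values were seen, were unc-52, the perlecan gene, with domains of 3124 and 2449 bp, daf-2, the insulin and IGF receptor gene, with 2567 bp in intestinal HPL-2 and 2023 bp elsewhere in the gene in hypodermal HPL-2, and dys-1, the dystrophin gene, with 2143 bp. The collagen IV genes let-2 and emb-9 of the basement membrane, also chosen after their values were seen, carried intestinal HPL-2 domains of 3112 and 2848 bp.

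Entire genes lay inside some domains of each list. A domain that held at least 1 protein-coding gene body and lay inside none was found in 1 of 24 cases (4.17%) in intestinal HPL-1, in 4 of 69 (5.8%) in intestinal HPL-2 and in 21 of 157 (13.4%) in hypodermal HPL-2. The shares of narrower intervals were 1.13%, 1.13% and 1.48%, and a wide interval has room for a whole gene by its length alone, so nothing is read from that gap. In hypodermal HPL-2, 26 genes lay wholly within a domain. In intestinal HPL-2, 6 genes did, lido-12, far-1, far-2, ZC15.3, F41G4.13 and F41G4.7, and in intestinal HPL-1, 1 did, DY3.8. The hypodermis set included far-1, far-2, lido-13, glrx-10, the C-type lectin gene clec-257 and the F-box genes fbxb-21 and fbxb-35.

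HPL-1 domains held less sequence of protein-coding gene bodies than those of the other lists. Of 24, 10 (41.7%) met no protein-coding gene, against 24.7% of narrower HPL-1 intervals, while the shares were 15.9% against 18.0% in intestinal HPL-2 and 17.2% against 23.7% in hypodermal HPL-2. Protein-coding gene bodies took 46.8% of HPL-1 domain sequence, against 65.0% for narrower HPL-1 intervals. These shares were 71.7% against 75.7% in intestinal HPL-2 and 65.4% against 66.3% in hypodermal HPL-2. Pseudogenes lay under 9 of 24 HPL-1 domains (37.5%), against 9.88% of all intervals of that list. They included wht-9, rac-3, ZC132.2, F28B1.3 and R155.4, chosen after their values were seen. In a window of 500 bp around each midpoint, which gives all intervals the same width, a pseudogene was met by 25.0% of HPL-1 domains and by 8.77% of narrower HPL-1 intervals, by 1.45% and 4.82% in intestinal HPL-2 and by 5.1% and 7.99% in hypodermal HPL-2. These shares rest on 6 HPL-1 domains, 1 intestinal HPL-2 domain and 8 hypodermis domains.

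Non-coding RNA genes were counted in the same way. Genes of the class named ncRNA were met by 0 of 24 HPL-1 domains, against 64 of 1346 (4.75%) of all intervals of that list, a share at which 24 domains are too few to tell a 0 apart. In the other lists 10 of 69 intestinal HPL-2 domains (14.5%) and 31 of 157 hypodermis domains (19.7%) met one, against 7.51% and 7.38% of all intervals of those lists. With the 500 bp windows, the hypodermis shares were 10.2% of domains and 4.52% of narrower intervals, and the intestinal HPL-2 shares were 1.45% and 6.14%. MicroRNA genes under domains, chosen after their values were seen, were mir-257 in all 3 lists, mir-50 inside the talin gene tln-1 in both HPL-2 lists, and mir-8204, mir-72 and mir-2217.2 in hypodermal HPL-2.

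Tissue genes and large families were followed with 15 lists chosen by gene symbol. Their counts under broad domains are to be read against 0.0951%, 0.351% and 0.886% of all protein-coding genes in intestinal HPL-1, intestinal HPL-2 and hypodermal HPL-2. Their counts under intervals of any width are to be read against 4.84%, 6.11% and 5.92% in the same order. Muscle genes took 1 of 53 members in intestinal HPL-1 (unc-54), 4 in intestinal HPL-2 (unc-54, unc-52, ketn-1 and the pharyngeal myosin gene myo-2) and 2 in hypodermal HPL-2 (unc-54 and ketn-1). Intervals of any width met 26.4%, 43.4% and 45.3% of the muscle list in the same order. Cuticle collagens lay under intervals of any width in 80 of 177 cases (45.2%) in intestinal HPL-2, and under a broad domain in 2 (1.13%), col-87 and col-140. Broad domains of the other lists met 0 of 177 collagens. Epidermal and molting genes were met in 3 of 73 cases in intestinal HPL-2 (vab-10, dpy-18 and mlt-11), in 1 in hypodermal HPL-2 (vab-10) and in 0 in intestinal HPL-1.

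Of the large families, lectins, F-box genes and chemoreceptors were met most often by hypodermis domains, which are also the most numerous. C-type lectins, carbohydrate-binding proteins many of which respond to bacteria, counted 9 of 239 under hypodermis domains (3.77%), 2 under intestinal HPL-2 domains (clec-92 and clec-122) and 0 under HPL-1 domains. Of the 9, 8 lay as neighbouring pairs beneath 4 domains, clec-125 with clec-126, clec-28 with clec-33, clec-240 with clec-241 and clec-256 with clec-257, and clec-21 lay alone. Intervals of any width met 14.6%, 8.37% and 11.7% of the lectins in hypodermal HPL-2, intestinal HPL-2 and intestinal HPL-1. F-box genes, whose products select targets for ubiquitination, were met in 3 of 325 cases in the hypodermis (fbxb-20, fbxb-21 and fbxb-35) and in 0 in the intestine lists, and the hypodermis share of 0.923% is close to the 0.886% of all genes. Chemoreceptor genes were met in 4 of 1316 cases in the hypodermis (sri-31, srt-29, sri-66 and srh-303), a share of 0.304% that is below that of all genes, and in 1 in each intestine list (srh-303 in HPL-1 and srh-76 in HPL-2). Of 17 lido genes, 2 lay under intestinal HPL-2 domains (lido-11 and lido-12) and 2 others under hypodermis domains (lido-8 and lido-13). Members of the same family lie next to each other and share sequence, so reads may not always be placed with certainty between them.

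Among the remaining lists, neuronal genes gave 1 of 188 in each list (nlp-99, rimb-1 and the neuropeptide gene nlp-17, in the order intestinal HPL-1, intestinal HPL-2 and hypodermal HPL-2). Hedgehog-related genes gave 1 of 85 in intestinal HPL-2 (grl-16) and 1 in hypodermal HPL-2 (grd-2), nuclear hormone receptors 1 of 269 in hypodermal HPL-2 (nhr-79) and chromatin genes 1 of 84 there, 142 bp of set-27. No broad domain of any list met a member of the intestinal (82 genes), MATH and BTB (89), detoxification (220) or histone (72) lists. At the shares of all genes, lists of this size would hold few such genes or none. Intervals of any width met 13.5%, 4.49% and 15.7% of the MATH and BTB genes in intestinal HPL-1, intestinal HPL-2 and hypodermal HPL-2.

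Domains were then compared with the intervals of any width in the other lists. In intestinal HPL-1, 11 of 24 domains (45.8%) shared at least 1 bp with an intestinal HPL-2 interval, against 27.9% of all HPL-1 intervals, and 15 of 24 (62.5%) with a hypodermal HPL-2 interval, against 27.3%. Of intestinal HPL-2 domains, 29 of 69 (42.0%) met HPL-1, against 22.0% of all intervals of that list, and 44 of 69 (63.8%) met the hypodermis list, against 28.8%. Of hypodermis domains, 71 of 157 (45.2%) met intestinal HPL-2, against 31.2%, and 42 of 157 (26.8%) met HPL-1, close to the 23.9% of all hypodermis intervals.

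A wide interval has more sequence with which to meet another, so the same was measured at equal width. With 500 bp around each midpoint, HPL-1 domains met hypodermal HPL-2 intervals in 54.2% of cases, against 26.1% of narrower intervals, and intestinal HPL-2 intervals in 37.5%, against 26.6%. Intestinal HPL-2 domains met the hypodermis list in 43.5% of cases, against 25.4%, and HPL-1 in 24.6%, against 19.6%. Hypodermis domains met intestinal HPL-2 in 31.2%, against 26.5%, and HPL-1 in 16.6%, against 21.2%. By covered sequence, 45.7% of HPL-1 domain sequence lay in hypodermis intervals, against 26.3% for narrower intervals, while 12.7% of hypodermis domain sequence lay in HPL-1 intervals, against 15.8%. At equal width the gap between domains and narrower intervals was widest for both intestine lists set against the hypodermis list, and for hypodermis domains set against HPL-1 its direction turned.

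**Figure D4:**
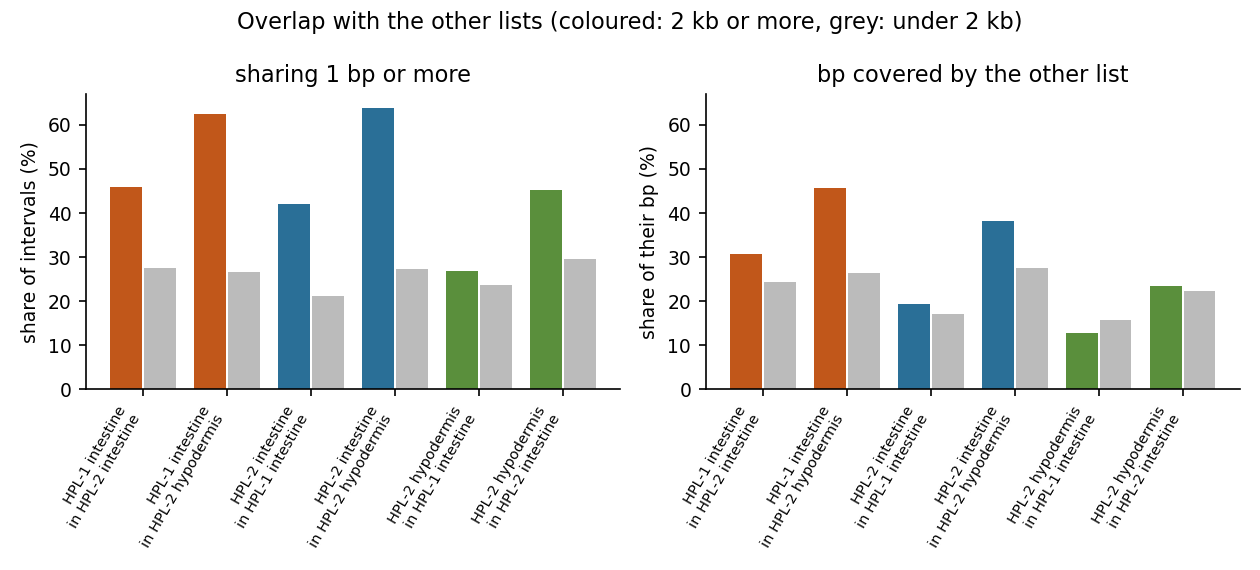
Share of intervals (%) that shared 1 bp or more with another list (left) and share of their sequence (%) covered by that list (right), with domains of 2 kb or more coloured and narrower intervals grey. Domains of intestinal HPL-1 (62.5%) and intestinal HPL-2 (63.8%) met the hypodermis list most often, and hypodermis domain sequence was covered less by HPL-1 (12.7%) than that of narrower intervals (15.8%).

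The HPL-1 domains without and with a protein-coding gene differed in their overlap with the hypodermis list. All 10 without a protein-coding gene overlapped a hypodermis interval, against 107 of 326 (32.8%) narrower intervals without one, and 6 of the 10 also met intestinal HPL-2. Of the 14 over genes, 5 met the hypodermis list (35.7%), against 24.7% of narrower intervals over genes. These are counts at 1 bp of overlap over intervals of unlike width. The 8 HPL-1 domains that met neither HPL-2 list all lay over genes, namely perm-4, fdgt-2, mup-4, nlp-99 with nep-2, fasn-1, tin-13 with DY3.8, egl-8 and meg-4. Of these 8, 3 had an FDR above 0.01, those over perm-4, over nlp-99 with nep-2 and over egl-8. All 4 HPL-1 domains in chromosome centres were among these 8, so position differed along with gene content. The split between HPL-1 domains was seen after the values were known. Intestinal HPL-2 domains without and with a protein-coding gene met the hypodermis list in 63.6% and 63.8% of cases, and HPL-1 in 45.5% and 41.4%. Hypodermis domains without and with one met intestinal HPL-2 in 33.3% and 47.7%, and HPL-1 in 22.2% and 27.7%. Domains that met neither other list numbered 17 of 69 (24.6%) in intestinal HPL-2 and 73 of 157 (46.5%) in hypodermal HPL-2, against 61.3% and 57.1% of narrower intervals.

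Broad domains of different lists overlapped each other at 25 of 223 distinct loci. There were 29 such pairs, 5 between HPL-1 and HPL-2 in intestine, 6 between intestinal HPL-1 and hypodermal HPL-2, and 18 between the HPL-2 lists. In 8 pairs both ends were identical and in 8 others 1 end was shared, while 2 pairs shared a single boundary base. DamID resolves binding to fragments between GATC sites, which are the same in every profile.

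Domains of all 3 lists overlapped at 2 loci, both on chromosome V and both without a protein-coding gene. On the left arm the HPL-1 domain ran from 793122 to 795862 (score 1.08), the intestinal HPL-2 domain from 793222 to 797012 (1.53) and the hypodermis domain from 793122 to 795732 (2.37). On the right arm the HPL-2 domains of both tissues ran from 17139747 to 17141823 around mir-257, with scores of 1.3 in intestine and 2.37 in hypodermis, within the HPL-1 domain of 4813 bp (0.9). At unc-54 on chromosome I the intestine domains overlapped, from 14858011 to 14860156 for HPL-1 (1.65) and from 14857675 to 14860569 for HPL-2 (1.97), whereas the hypodermis domain lay further along the gene, from 14860670 to 14862854 (2.53). Narrower intervals of the hypodermis list met the intestine domains there, and narrower intervals of the intestine lists met the hypodermis domain.

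Between the HPL-2 lists the longest shared stretch, 3604 bp, lay in ketn-1, where the hypodermis domain (score 2.2) began at the same base as that of the intestine (1.53). Domains with both ends alike were found over K01A11.3 (2968 bp, scores 1.94 in intestine and 2.61 in hypodermis), over the fatty acid and retinol binding protein genes far-1 and far-2 (2941 bp, 1.51 and 1.88 in this order), over pqn-83 and Y39E4B.13 (2502 bp) and over Y48G10A.2 (2392 bp). Ends were also alike at places without a protein-coding gene. These ran from 1360021 to 1362135 on chromosome IV (0.8 and 1.28) and from 3454585 to 3456642 on chromosome V (0.68 and 2.61). The score of 0.68 was the lowest of the intestinal HPL-2 domains. The domain over far-1 and far-2, on chromosome III from 9080263 to 9083203, held both genes entire and lay in the chromosome centre, and no HPL-1 interval met it. Others were shared in part over F22G12.4, spe-47, F32B4.8 and amn-1, which is related to mammalian amnionless.

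Intestinal HPL-1 and hypodermal HPL-2 share neither tissue, fusion nor control. Their domains overlapped at R155.3 (2651 bp, score 1.13, and 3059 bp, score 3.08), at ZK262.8 (2226 and 2145 bp) and at srh-303, where both ran from 17832844 to 17835330 on chromosome V with scores of 0.72 in intestinal HPL-1 and 1.73 in hypodermal HPL-2 and no intestinal HPL-2 interval met them. On chromosome V the HPL-1 domain of 2005 bp lay within a hypodermis domain of 2925 bp that touched 163 bp of sri-66. Within the intestine, HPL-1 and HPL-2 domains also overlapped at Y43F8B.3 (2096 and 4908 bp) and over the stretch without a protein-coding gene from 19274787 to 19278309 on chromosome V (2584 and 3523 bp), both of which held several narrower hypodermis intervals.

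**Figure D5:**
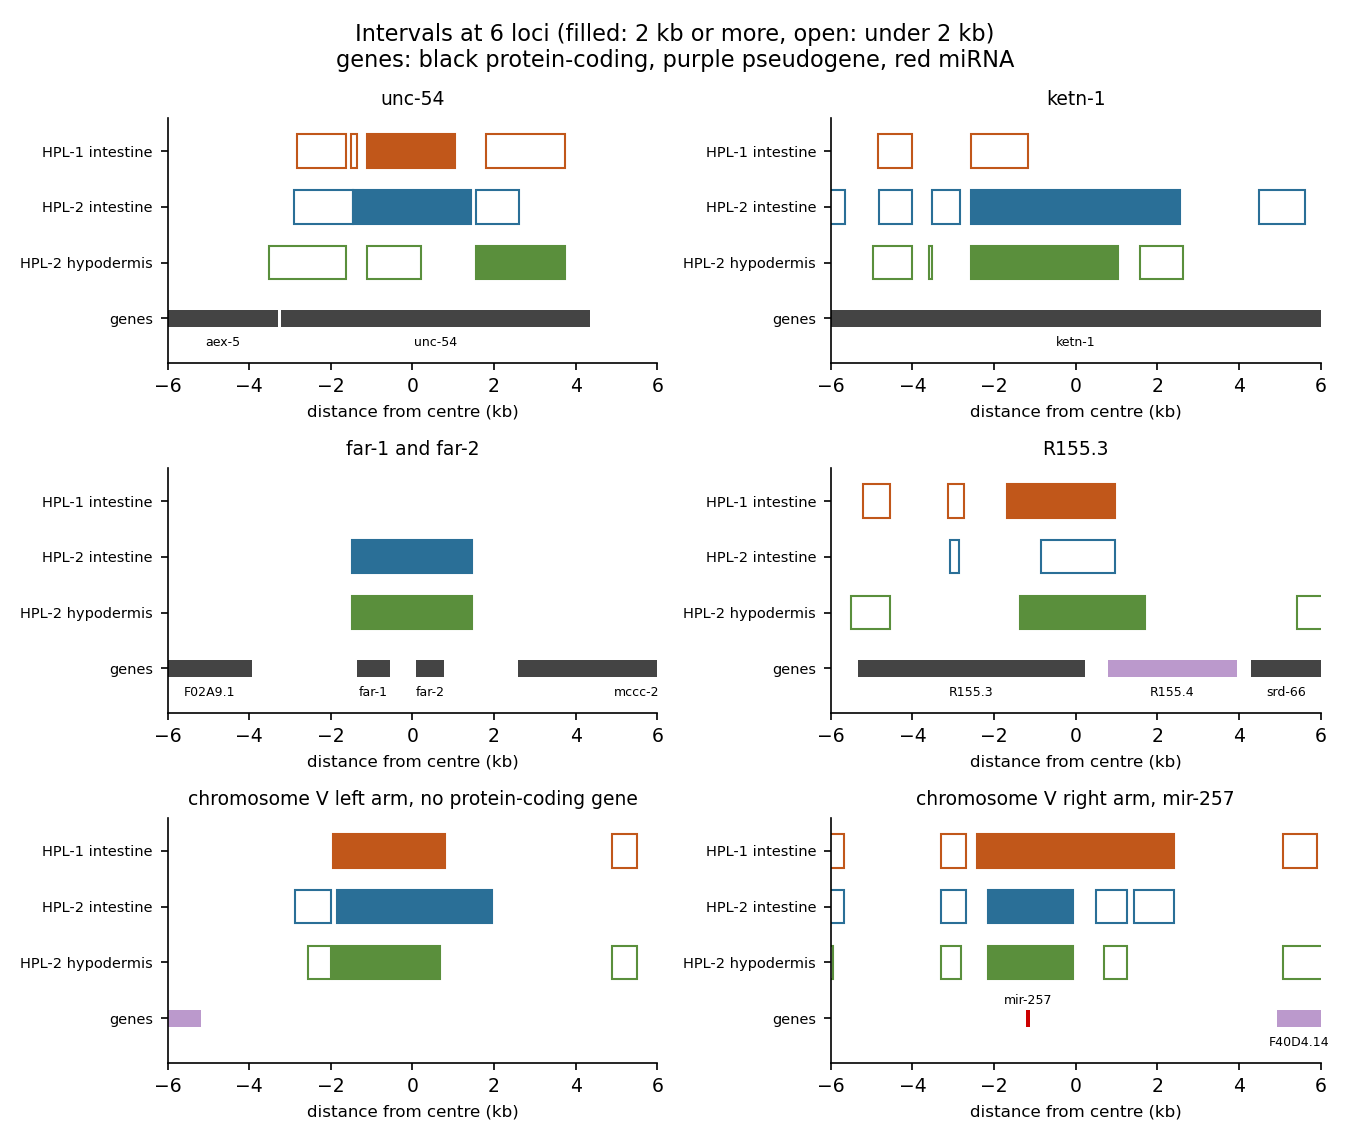
Intervals of the 3 lists within 6 kb of the centre of 6 loci (distance in kb), with domains of 2 kb or more filled, narrower intervals open, and genes below. At far-1 and far-2 the HPL-2 domains of both tissues have the same ends and HPL-1 has none, and at unc-54 the hypodermis domain lies beside the overlapping intestine domains.

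Some broad domains of 1 list were several intervals in another. Of hypodermis domains, 4 met 2 HPL-1 intervals, 1 met 3 or more, and 5 met 2 intestinal HPL-2 intervals. Of intestinal HPL-2 domains, 5 met 2 HPL-1 intervals and 7 met 2 hypodermis intervals, with 3 or more in 1 and 3 cases. Of HPL-1 domains, 3 met 2 hypodermis intervals and 1 met 3 or more, as did 1 for intestinal HPL-2. Of 157 hypodermis domains, 87 held no boundary of an interval of the other lists, as did 28 of 69 intestinal HPL-2 and 10 of 24 HPL-1 domains. These include the 73, 17 and 8 domains that met neither other list, in the same order. The most boundaries were 8, in the intestinal HPL-2 domain of 4908 bp in Y43F8B.3, which met 1 HPL-1 and 3 hypodermis intervals. The intestinal HPL-2 domain in vab-10 held 7, with 3 HPL-1 and 2 hypodermis intervals, as did that over F41G4.13 and F41G4.7, with 2 HPL-1 and 3 hypodermis intervals. Among HPL-1 domains the most were 6, in that around mir-257, with 3 intestinal HPL-2 and 2 hypodermis intervals beneath it. The hypodermis domain of 8052 bp in Y65B4A.2 met a single intestinal HPL-2 interval of 1812 bp (score 1.17) and no HPL-1 interval.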

How the data were processed

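DamID-seq libraries from 5 groups of 2 had been made from 200 ng of genomic DNA, per the labels. Per the submitters' processing notes, the authors used the ce11 (WBcel235) build, SAMtools 1.9, Bowtie2 2.3.4 and R 3.4.3. The interval caller is not given in the sources used here. Deposited were 3 interval lists, whose names state an averaged profile against Dam at an FDR of 0.05. Each gives other values, namely chromosome, start and end, and the authors' score, with an FDR per interval. Processing of this kind resolves binding to GATC fragments, and averaging removed the replicate error; depth is unknown.

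Intervals were matched in Python 3.11.15 with pandas 2.3.3 and numpy 2.4.6 to a RefSeq gene table of WBcel235 with 46890 genes, without strand, exons or repeats. Overlap meant at least 1 bp. Chromosome length was the furthest gene or interval end, 100.3 Mb in all. No statistical test was run. Counting steps were tested on simulated data. Members and gene lists were chosen with earlier results of these data known. Named in the text were most, not all, of the 10 widest domains of each list and the 5 highest-scoring (up to 4 genes each, those with a symbol). Also named were 20 loci shared between lists with the longest shared stretch, the 3 domains and 3 intervals nearest the threshold, and gene list members under domains. Others are said to be chosen later. Alternatives were other widths, a stricter FDR, joining of neighbours, other overlap rules, arm definitions and gene rules. No sequence is shown, since no sequence table was used here.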

Additional observations from a re-analysis of the deposited data

How the results depend on the processing

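Of 183 values recomputed under the alternatives, 63 moved. A count was called moved when its ratio to the main count passed a set limit. A share was called moved when it left the 95% binomial interval of the main share. That interval takes intervals as independent, which they are not, so it serves only as a label and not as a test. The values are counts or shares of domains, which cannot change sign. Set against narrower intervals, some gaps did turn with 500 bp around the midpoint. Hypodermis domains met HPL-1 in 26.8% of cases, against 23.6%, and at equal width in 16.6%, against 21.2%. Pseudogenes turned in intestinal HPL-2 (7.25% against 5.14%, and 1.45% against 4.82% at equal width) and hypodermal HPL-2 (10.8% against 8.62%, and 5.1% against 7.99%), as did the class ncRNA in intestinal HPL-2 (14.5% against 7.21%, and 1.45% against 6.14%) and protein-coding genes in intestinal HPL-2 (84.1% against 82.0%, and 72.5% against 81.0%) and hypodermal HPL-2 (82.8% against 76.3%, and 72.6% against 72.9%). Numbers of domains follow the width rule by construction. With 1500, 2500 and 3000 bp there were 74, 9 and 3 intestinal HPL-1 domains, 194, 31 and 14 intestinal HPL-2 domains and 347, 81 and 32 hypodermal HPL-2 domains, and joining neighbours gave 44 HPL-1 domains. With 50% or more of the domain covered, HPL-1 domains met intestinal HPL-2 in 7 cases, intestinal HPL-2 domains met HPL-1 in 9 and hypodermal HPL-2 in 24, and hypodermis domains met HPL-1 in 18 and intestinal HPL-2 in 32. With the midpoint inside an interval the last 4 counts were 13, 25, 19 and 42, and with 500 bp around the midpoint HPL-1 was met by 17 intestinal HPL-2 and 26 hypodermis domains. These rules ask for more overlap by construction, but with 50% or more covered some gaps to narrower intervals also turned. Intestinal HPL-2 domains then met HPL-1, and hypodermis domains met either intestine list, in a smaller share of cases than narrower intervals. HPL-1 domains against both HPL-2 lists, and intestinal HPL-2 domains against the hypodermis list, kept the larger share. With the midpoint inside, only hypodermis domains set against HPL-1 turned. Arm shares were 87.0% for intestinal HPL-2 with the outer 2 of 4 equal parts, 100.0% for both HPL-2 lists at 3000 bp and 96.3% for hypodermal HPL-2 at 2500 bp. In intestinal HPL-1 the share was lower at greater widths, 77.8% at 2500 bp and 66.7% at 3000 bp (3 domains), the last below the 74.0% of intervals under 2000 bp. Genes wholly inside domains numbered 1, 6 and 26 in intestinal HPL-1, intestinal HPL-2 and hypodermal HPL-2. An FDR of 0.01 or below left 20, 63 and 143 domains in this order. With 10 bp of overlap, chosen after seeing the data, hypodermis domains met intestinal HPL-2 in 66 cases and HPL-1 in 40.

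No paired analysis was possible because the lists are averages and hold no values per replicate, and leaving out a replicate was not possible for the same reason. Scores cannot be compared between lists, and depth, background methylation and mappability could not be measured from the lists.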
